A study of Macaca mulatta with 24 samples.

Results

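Endometrium of rhesus monkeys was compared between day 6 and day 2 after ovulation in cycles without mating, to describe the early luteal phase without an embryo. The comparison holds 8 of the series' 24 arrays, 4 of each day, and they were chosen by the day in the source name. Every label of the 4 day 6 samples gives day 6 except the title, which names day 2. All animals were females with normal ovulation, and the labels name no treatment or genetic change in any group. The other 16 arrays come from non-mated day 4 and from mated cycles with a proven conception at days 2, 4 and 6. The titles of the non-mated day 4 samples name day 2 as well, while their source names give day 4. Each array was a 1-colour Agilent design hybridised with Cy3-labelled copies of whole-tissue RNA, so that fewer cells of a type and less RNA per cell cannot be told apart. Nothing in the labels ties the arrays of a group to different animals, so p-values reflect the spread among arrays alone, part or all of which may be technical. The main model pools that spread over all groups of the series, conception cycles among them.

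The endometrium lines the uterus and consists of glands and a surface epithelium set in a stroma with blood vessels and immune cells. Before ovulation oestrogen drives its cells to divide. After ovulation progesterone from the corpus luteum stops most epithelial division, turns the glands to secretion, and is followed by a gain of uterine natural killer cells, the main lymphocytes of the luteal endometrium. Implantation in the rhesus monkey comes later than both of the days compared here.

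One day 2 array, replicate 3, stood apart from all others of the comparison. Only 4.33% of its probes were well above background, against 55.3% to 71.5% on the other 7 arrays, and on it most genes share 1 floor value. Results are therefore given without it, from 3 day 2 arrays (replicates 1, 2 and 4) and 4 day 6 arrays, and then with it. The other 2 weak arrays of the series, both of non-mated day 4, were left out in the same way. The 7 arrays were scanned on 2 days. Day 2 replicate 4 and day 6 replicates 2 and 3 belong to scan day 1, and day 2 replicates 1 and 2 and day 6 replicates 1 and 4 to scan day 2. The deviations of the arrays from their group means followed the scan day. They correlated at 0.10 to 0.47 over genes for the 6 pairs of a day 2 and a day 6 array with the same scan day, and at -0.47 to -0.10 for the 6 pairs with different scan days. Signal strength split the same way, with 70.5% to 71.5% of probes well above background on scan day 1 and 55.3% to 60.7% on scan day 2. Dim probes could be read to lower levels on scan day 1. Scan day and signal strength cannot be told apart in these 7 arrays. The largest spot signal on day 2 replicate 2 was 30343, against 301104 or more on every other array of the 7. Levels correlated at 0.925 to 0.976 between any pair of the 7, and no pair was identical.

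The tissue label was checked against markers. Of 18 stromal fibroblast markers on the array, 15 were well above background on all 7 arrays, as were 15 of 19 epithelial markers and 15 of 19 smooth muscle markers. Summed signals, relative to the 75th percentile of each array, ran from 131 to 158 at day 2 and from 130 to 149 at day 6 for the epithelial markers. For the stromal markers they ran from 188 to 337 and from 206 to 332, and for the smooth muscle markers from 37.7 to 92.2 and from 52.7 to 72.4. T and B cell markers summed to 3.42 to 5.67 at day 2 and 3.49 to 3.97 at day 6. Of 21 on the array, 8 were well above background on all 7 arrays. Another 6, CD3G, CD5 and MS4A1 among them, were so on none.

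No gene passed the test between the days. In limma's model of 12671 features (8492 of them with a gene symbol) over 6 groups and 21 arrays, 0 features (0%) had a Benjamini-Hochberg adjusted p under 0.05, and the smallest adjusted p was 1.00. At an unadjusted p under 0.05 there were 237 features (1.87%), 132 higher and the rest lower at day 6, fewer than evenly spread p-values would give. The same model called 193 features (1.52%) between day 6 and day 2 of conception cycles, 145 higher and 48 lower, and there 1898 features had an unadjusted p under 0.05. The test of the difference between the cycle types called 0 features (0%), with 546 at an unadjusted p under 0.05 and a smallest adjusted p of 0.899. A larger change in conception cycles was thus not shown gene by gene. The median 95% interval of a non-mated difference reached 0.83 on the log2 scale to either side. That is the bound of a single unadjusted test for the typical feature, and a call at the adjusted threshold asked for a larger difference. The spread was pooled over all 6 groups, with median standard deviations of 0.33 to 0.40 in non-mated and 0.44 to 0.56 in conception groups. A model of the 7 arrays alone gave a median standard error of 0.294 instead of 0.395. There 556 features (4.85%) had an unadjusted p under 0.05. With array weights on all 24 arrays, 1675 of 12096 features did. Differences beyond 1 on the log2 scale numbered 425 (3.35%) in non-mated and 1554 (12.3%) in conception cycles. The share of features higher at day 6 was 51.6% in non-mated cycles, 67.9% with normexp background correction and 39.7% with the weak arrays in the model.

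**Figure D1:**
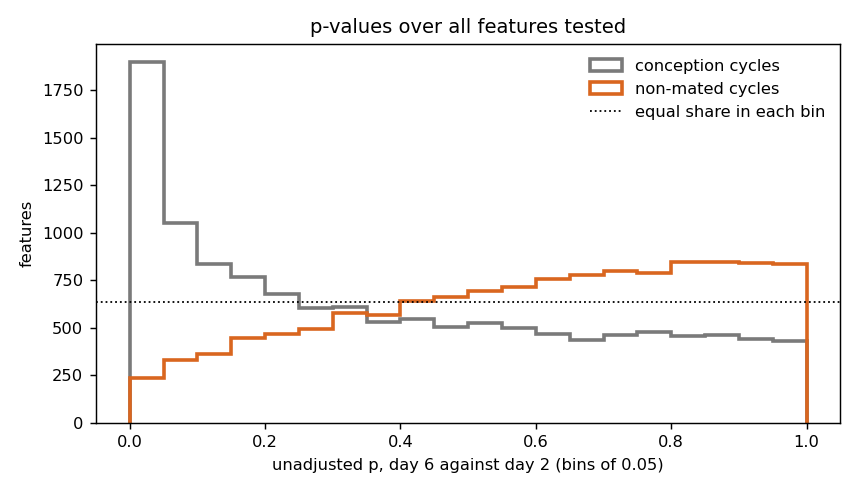
Unadjusted p-values of the day 6 against day 2 comparison over 12671 features, in bins of 0.05, for non-mated (orange) and conception cycles (grey). The first bin holds 237 features in non-mated and 1898 in conception cycles, and the dotted line marks an equal share in each bin.

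The genes below are therefore given as values. They are the 15 genes with the smallest unadjusted p in each direction, and a list of 18 endometrial genes given whatever their value. A level is the log2 signal minus the 75th percentile of the array, and a difference is day 6 minus day 2 in log2 units with its standard error from the model. Since the 30 were picked by this same comparison, their order and the number whose arrays do not overlap add no support. Between the groups, arrays did not overlap for 9 of the 15 higher genes (background 2.29% of all features) and for 14 of the 15 lower ones (background 2.69%).

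On the lower side ROR1, a receptor for Wnt ligands such as WNT5A, had levels of 0.12, 0.55 and -0.30 on the day 2 arrays and of -2.28, -1.15, -0.97 and -2.09 on the day 6 arrays. Every day 6 array lay below every day 2 array, and the difference was -1.75 ± 0.44 (95% interval -2.68 to -0.82), the smallest p of the comparison. Within the scan days it was -0.76 on scan day 1 and -2.52 on scan day 2. In conception cycles ROR1 differed by -1.77 ± 0.41 (limma adjusted p = 0.0365), so that nearly the same value passed the test there. The probe lies on chromosome 1 at 66961962-66962021 of the rheMac2 build. On the 2 usable day 4 arrays ROR1 lay at -0.20 and -0.51, between the lowest day 2 array and the highest day 6 array or within the day 2 range.

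PDZK1 encodes a scaffold protein of epithelial membranes and is known as an oestrogen-induced gene. Its levels were -1.52, -1.30 and -1.18 at day 2 and -3.67, -2.89, -2.44 and -3.13 on the day 6 arrays. The days did not overlap, and the difference was -1.70 ± 0.57. In conception cycles the difference was -2.37 ± 0.53 (limma adjusted p = 0.0311), with 1 of 4 day 6 arrays there well above background. ROR1 and PDZK1 were the only 2 of the 30 genes called in conception cycles, where 1.52% of all features were called. In non-mated cycles neither was called.

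ANXA4, which encodes the calcium-dependent membrane-binding protein annexin A4 of glandular epithelium, had the lowest difference of all, -4.28 ± 1.53. Its levels were -2.74, 0.46 and 1.52 at day 2 and -4.32, -5.00, -4.72 and -4.06 on the day 6 arrays. The day 2 arrays were widely spread while the day 6 arrays were close together, and 2 of 4 day 6 arrays were well above background. Conception cycles gave -3.30 ± 1.41. At day 4 it was at 1.45 and -4.55, which lie on either side of most other arrays.

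IL6, the gene of the inflammatory cytokine interleukin 6, had levels of 0.04, -2.82 and -2.43 at day 2 and of -2.36, -6.87, -6.48 and -4.97 at day 6. Day 6 replicate 1 lay within the day 2 range and was the only day 6 array well above background. The difference was -3.44 ± 0.98, and it was -1.20 with normexp background correction. At day 4 IL6 was at -6.45 and -5.44. In conception cycles the difference was -0.80 ± 0.91, and the test of the difference between cycle types gave no call.

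LIF, the related cytokine that implantation requires in mice, had levels of -4.00, -2.70 and -3.55 at day 2 and of -4.28, -5.45, -5.99 and -5.88 on the day 6 arrays. The arrays did not overlap, although day 6 replicate 1 lay close to the lowest day 2 array. The difference was -1.98 ± 0.88 and became -0.10 with normexp background correction. Only 2 of 4 day 6 arrays were well above background, so the size of the difference rests on dim signals.

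CD52, a surface glycoprotein of lymphocytes and of epithelium of the reproductive tract, lay at -0.67, -0.19 and -0.65 at day 2 and at -2.10, -2.82, -1.73 and -1.51 on the day 6 arrays. The groups did not overlap, the difference was -1.53 ± 0.53, and at day 4 CD52 was at -3.29 and -3.12. TNFSF13B, which encodes the B cell survival factor BAFF, lay between -3.69 and -2.53 at day 2 and between -4.20 and -4.03 at day 6, a difference of -1.01 ± 0.31. ADGRL3, an adhesion receptor of the latrophilin family, had levels of -3.52, -3.22 and -0.22 at day 2 and of -5.62, -4.41, -4.46 and -3.84 at day 6. Its difference of -2.27 ± 0.65 leaned on day 2 replicate 4 and was -1.22 without it and -0.98 with normexp background correction.

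Of the other lower genes, CAST encodes the calpain inhibitor calpastatin. It lay at -1.22, -0.43 and -0.49 at day 2 and at -1.97, -1.68, -1.70 and -1.99 on the day 6 arrays. The groups were apart, with a difference of -1.12 ± 0.36, and the other 2 CAST probes on the array gave -0.82 and -1.30. CAB39L, a partner of the kinase LKB1, differed by -1.30 ± 0.41, and ATP8B3, a phospholipid-transporting ATPase, by -1.09 ± 0.34. The arginine methyltransferase gene PRMT6 differed by -1.39 ± 0.48, the molybdenum cofactor sulfurase gene MOCOS by -1.31 ± 0.46, and TMEM123, which encodes the membrane protein porimin, by -1.23 ± 0.43. NABP1, which encodes a single-stranded DNA-binding protein, differed by -0.93 ± 0.29, but by 0.16 with normexp background correction. MAIP1, which encodes a protein of the mitochondrial matrix, differed by -0.92 ± 0.31.

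**Figure D2:**
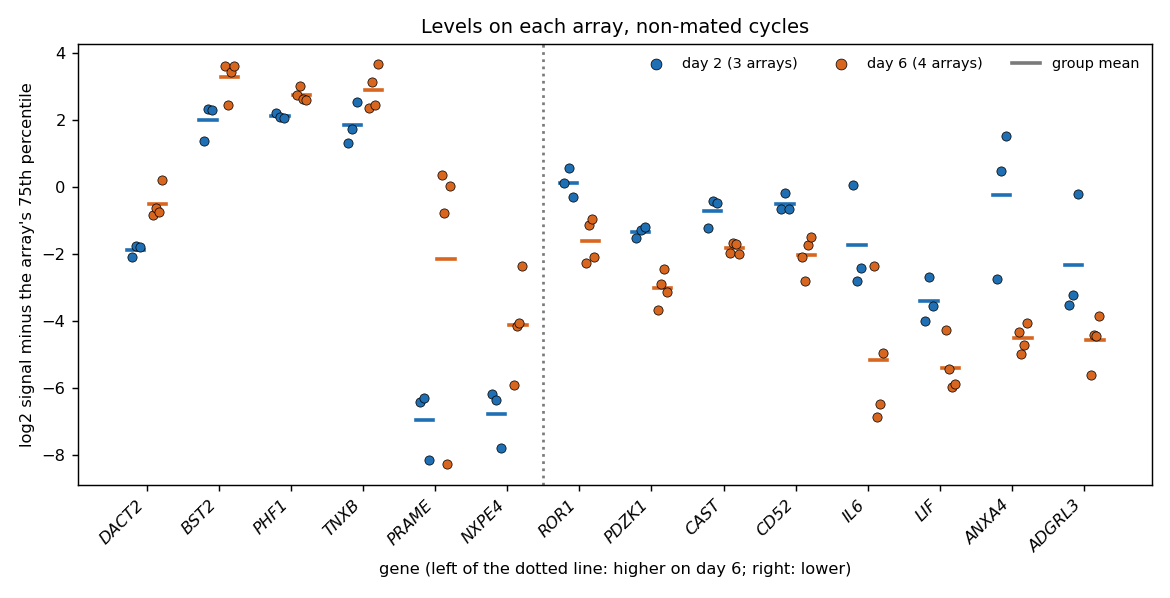
Levels (log2 signal minus the array's 75th percentile, vertical axis) of 14 genes on the 3 day 2 arrays (blue) and 4 day 6 arrays (orange) of non-mated cycles, with the group means as bars. DACT2 at day 2 lies at -1.76 or below and at day 6 at -0.85 or above, whereas PRAME at day 6 splits between 3 arrays at -0.78 or above and 1 at -8.29.

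On the higher side DACT2, which encodes an antagonist of TGF-beta and Wnt signalling, had the smallest p. Its levels were -2.09, -1.76 and -1.81 at day 2 and -0.85, -0.64, -0.76 and 0.20 at day 6. All day 6 arrays lay above all day 2 arrays, with a difference of 1.37 ± 0.37 (95% interval 0.59 to 2.16). It lay at -0.10 and -0.92 at day 4. In conception cycles DACT2 differed by -0.08 ± 0.35, but the difference between cycle types did not pass the test (limma adjusted p = 0.939). The probe lies on chromosome 4 at 165235822-165235881 of rheMac2.

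BST2, which encodes tetherin, an interferon-induced membrane protein, had levels of 1.36, 2.33 and 2.31 at day 2 and of 3.60, 2.45, 3.44 and 3.62 on the day 6 arrays. The groups did not overlap, but day 6 replicate 2 lay close to the highest day 2 array. The difference was 1.28 ± 0.42. Among the 28 interferon-stimulated genes measured, 12 were higher at day 6 and the median difference was -0.05.

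PRAME, a gene of germ cells and tumours with many near copies in primates, gave the largest difference, 4.79 ± 1.33. It was not well above background on any day 2 array, with levels of -6.41, -6.30 and -8.16. At day 6 it was at 0.37, -0.78 and 0.04 on replicates 1, 2 and 4 and at -8.29 on replicate 3. The signal was thus present on 3 of 4 day 6 arrays and on neither of the usable day 4 arrays, at -7.84 and -7.96. Against the floor of the day 2 arrays the day 6 mean was at least 9.35-fold higher. The floor of an array is the dimmest signal it holds that is well above background, or the gene's own signal where higher. Without day 6 replicate 3, the array that lacked the signal, the difference was 6.83. PRAME then passed the test (limma adjusted p = 6.31e-07), the only named gene to do so when 1 array was left out. Since the array left out was the one that went against the difference, that p adds no support. PRAME also met the filter on dim probes at non-mated day 6 and not at day 2. In conception cycles PRAME was well above background on 0 of 4 day 6 arrays.

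NXPE4, a gene of the neurexophilin domain family, was likewise not well above background on any day 2 array and was so on 3 of 4 at day 6, where its mean was at least 2.41-fold above the floor. Its levels were -6.19, -6.36 and -7.81 at day 2 and -5.90, -4.16, -4.08 and -2.36 at day 6, so that the groups did not overlap.

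Of the remaining higher genes, PHF1, which encodes a Polycomb-associated histone reader, varied little within a day. It lay at 2.20, 2.09 and 2.07 at day 2 and at 2.76, 3.00, 2.64 and 2.60 at day 6, which did not overlap, with a difference of 0.63 ± 0.20. TNXB, which encodes the matrix protein tenascin X, lay at 1.30, 1.72 and 2.55 and at 2.36, 3.13, 2.44 and 3.67. Its groups overlapped, and the difference of 1.04 ± 0.37 was 0.24 on scan day 1. FGR and WAS are genes of blood-derived cells, a kinase and the Wiskott-Aldrich syndrome protein. FGR differed by 0.91 ± 0.32, with conception cycles at 1.10 ± 0.30. WAS differed by 1.04 ± 0.31, with conception cycles at 0.78 ± 0.29, and was well above background on 1 of 3 day 2 and 3 of 4 day 6 arrays.

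The adaptor gene GRAP differed by 0.76 ± 0.27, and OSBPL5, which encodes an oxysterol-binding protein relative, by 0.92 ± 0.32. HPS6, needed for lysosome-related organelles, differed by 0.61 ± 0.21, and CENATAC, which encodes a protein of the minor spliceosome, by 0.91 ± 0.32. LMBR1L, which encodes a membrane receptor for lipocalin 1, differed by 0.82 ± 0.27 and NIF3L1 by 0.92 ± 0.31. F2, the prothrombin gene, differed by 1.58 ± 0.57, and 1 of 3 day 2 arrays against 4 of 4 day 6 arrays were well above background. All 15 higher and all 15 lower genes kept their sign within each of the 2 scan days. They were picked on these same arrays, and scan day 1 holds only 1 day 2 array, so this adds no support. With the weak arrays in a model of all 24, WAS lay at -0.095 and the others of the 30 kept their sign. The floor value of the weak day 2 array could not turn the sign of lower genes with a day 2 mean below it, or of higher genes with a day 2 mean above it.

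Genes of cell division were the list with the largest difference. Of 40 measured mitosis genes, 39 were lower at day 6, and the median difference was -1.12 against 0.01 for all features tested. None passed the test. The list's median on each array, set against each gene's day 2 mean, was -0.51, 0.81 and -0.29 on the day 2 arrays and -0.88, -1.002, -1.47 and -1.01 on the day 6 arrays. The days did not overlap, but day 2 replicate 2 stood above the other day 2 arrays, and without it the median difference was -0.71. With normexp background correction it was -0.38, where the median of all features was 0.14. For 20 of the 40 genes (50%) the arrays of the 2 days did not overlap, all of them lower at day 6, against 2.69% of all features.

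ASPM, which encodes a protein of the spindle poles, lay at -4.35, -3.92 and -4.49 at day 2 and at -5.90, -5.66, -6.06 and -5.62 on the day 6 arrays. The groups did not overlap, and the difference was -1.56 ± 0.86. BUB1, a kinase of the spindle checkpoint, lay at -2.62, -1.25 and -2.11 and at -3.16, -3.92, -3.94 and -3.48, a difference of -1.63 ± 1.03 without overlap. NUSAP1, a spindle protein gene, differed by -1.70 ± 1.08, ANLN, the gene of the cleavage furrow protein anillin, by -1.65 ± 1.05, and NEK2, a centrosome kinase, by -1.61 ± 0.95. Cyclin B1, the partner of the mitotic kinase, lay at -3.56, -2.22 and -3.07 and, on the day 6 arrays, at -4.18, -3.61, -4.08 and -4.44, a CCNB1 difference of -1.13 ± 0.92. The transcription factor gene FOXM1, which drives many of these genes, differed by -1.41 ± 1.10. The member with the highest difference was CKS1B at 0.03 ± 0.36. MKI67, the gene of the Ki-67 antigen, was not well above background on any of the 7 arrays.

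The same list varied more on other arrays. On the 8 conception arrays of days 2 and 6 its medians ran from -2.30 to 2.14, and at non-mated day 4 the 2 usable arrays lay at -1.97 and 1.63. In a model of the 7 arrays alone the median standard error of the mitosis genes was 0.37 instead of 0.96, and 29 of 38 were lower with an unadjusted p under 0.05, against 2.43% of all features in that direction. No feature passed the adjusted threshold in that model either (0%, with 556 at an unadjusted p under 0.05 and a smallest adjusted p of 0.740). Conception cycles gave a median of -0.88 for the same list, with 39 of 40 lower and 0 called. Within the scan days the non-mated median was -0.90 and -1.13.

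Of 28 DNA replication genes measured, 22 were lower at day 6, with a median of -0.38. None of the 28 had groups apart, which is near the share over all features (2.69% lower). PCNA, the sliding clamp of the replication fork, lay at 1.47, 1.59 and 0.71 at day 2 and at 0.85, 0.69, 0.72 and 1.33 at day 6, which overlap. The difference was -0.36 ± 0.55. The median was -0.11 without day 2 replicate 2.

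**Figure D3:**
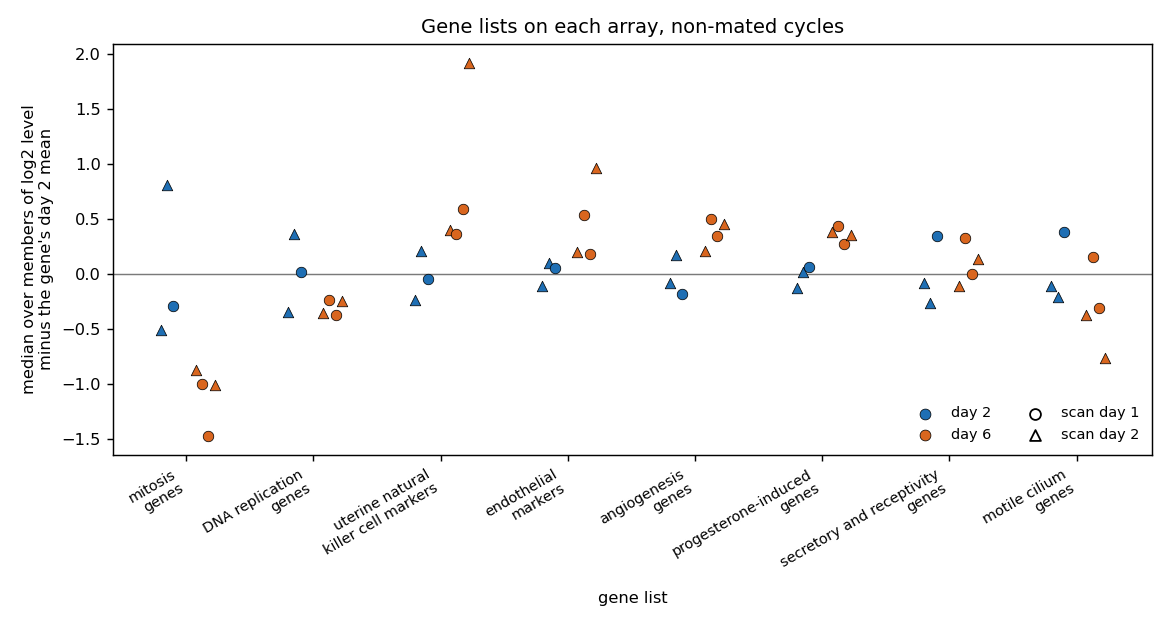
Median over the members of a gene list of the level minus the gene's day 2 mean (log2, vertical axis) on each of the 7 arrays, with circles for scan day 1 and triangles for scan day 2. Mitosis genes lie at -0.51 or above at day 2 and at -0.88 or below at day 6, and the natural killer markers lie highest on day 6 replicate 4 at 1.92.

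Markers of uterine natural killer cells had the highest median of the 45 lists, 0.67, with 13 of 14 measured genes higher at day 6 and 0 called. GZMB, which encodes the cytotoxic protease granzyme B, lay at -0.30, 2.05 and 1.84 at day 2 and at 2.68, 2.13, 2.12 and 4.06 on the day 6 arrays. The days did not overlap, though replicates 2 and 3 of day 6 lay close to the highest day 2 array. The difference was 1.55 ± 0.70. GZMA, another granzyme, lay at -0.05, 2.71 and 2.36 and at 2.85, 2.72, 2.85 and 4.74, a difference of 1.62 ± 0.79. CST7, the gene of the protease inhibitor cystatin F, differed by 1.33 ± 0.57 without overlap, PRF1, the perforin gene, by 1.14 ± 0.66, and GNLY, the granulysin gene, by 0.57 ± 0.56. NCAM1, whose product CD56 marks these cells, differed by 0.50 ± 0.41.

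The list's array medians were -0.23, 0.21 and -0.04 at day 2 and 0.40, 0.36, 0.59 and 1.92 at day 6. Day 6 replicate 4 stood above the rest, and without it the median difference was 0.41. The same array was also highest for the endothelial markers at 0.96, the T and B cell markers at 0.76 and the macrophage and dendritic markers at 0.64, and the part of other cell types in the list's value was not tested. Summed signals of the natural killer list ran from 10.8 to 19.2 at day 2 and from 18.5 to 67.0 at day 6, and KLRF1, NCR3, CD160, EOMES, IL2RB and SH2D1B were not well above background on any array. Conception cycles gave a median of 0.93 with 0 called. With the weak arrays in the model the non-mated median was -0.16, while that of all features was -0.18.

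Vascular genes were higher at day 6 in number. Of 14 endothelial markers 13 were higher, with a median of 0.44, and 5 (35.7% of the list) had all day 6 arrays above all day 2 arrays, against 2.29% of all features. ESAM, an adhesion molecule of endothelial junctions, lay at -2.86, -2.66 and -2.73 at day 2 and at -2.17, -1.78, -2.03 and -1.72 on the day 6 arrays. These did not overlap, and the difference was 0.83 ± 0.34. CD34 lay at 2.04, 2.45 and 1.95 and at 3.26, 2.57, 2.47 and 2.52, with the groups just apart and a difference of 0.56 ± 0.35. CLDN5, the claudin of endothelial tight junctions, differed by 0.86 ± 0.42, and EGFL7, a secreted factor of vessels, by 0.56 ± 0.29.

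Of 21 angiogenesis genes 18 were higher, with a median of 0.42, and 5 had all day 6 arrays above all day 2 arrays, against 2.29% of all features. DLL4, the Notch ligand of sprouting vessels, lay at -2.83, -3.02 and -3.72 and at -2.68, -2.08, -2.32 and -2.31, a difference of 0.84 ± 0.33. PGF, placental growth factor, differed by 0.73 ± 0.35, VEGFB by 0.42 ± 0.26 and VEGFA by 0.34 ± 0.38. Both lists were higher within each scan day, at 0.42 and 0.62 for the endothelial and 0.44 and 0.48 for the angiogenesis genes. In conception cycles the medians were 0.17 and -0.10. With the weak arrays in the model the non-mated medians were -0.17 and -0.23.

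Progesterone-induced genes were mostly higher at day 6. Of 23 measured, 18 were higher with a median of 0.35, and 0 passed the test. The list's array medians were -0.13, 0.02 and 0.07 at day 2 and 0.38, 0.44, 0.28 and 0.35 at day 6, so the days did not overlap. NDRG2, a stress- and hormone-responsive gene, lay at 1.01, 1.72 and 1.46 and at 1.82, 2.68, 2.36 and 2.46, a difference of 0.93 ± 0.37 without overlap. SGK1, the kinase that steroid hormones induce to control epithelial sodium transport, lay at 1.30, -0.07 and -0.67 and at 1.03, 2.02, 0.47 and 1.47. These overlap, and the difference was 1.06 ± 0.50. TSC22D3, the glucocorticoid-induced leucine zipper gene, differed by 0.34 ± 0.31, with the groups apart, and the clock gene PER1 by 0.65 ± 0.43. The median of the list was -0.41 in conception cycles, where GATA2, a transcription factor of the progesterone response, was called lower at -1.08 ± 0.22 (limma adjusted p = 0.0229). In non-mated cycles GATA2 differed by -0.34 ± 0.24.

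Immediate early genes, which cells switch on within minutes of a stimulus, had a median of 0.43 with 20 of 23 higher. FOS lay at -2.18, -2.08 and -1.80 at day 2 and at 0.83, -1.18, -1.80 and 0.01 on the day 6 arrays. The lowest day 6 array only just cleared the highest day 2 array, and the difference was 1.49 ± 0.65. JUN lay at 0.28, 1.44 and 1.81 and at 2.52, 2.03, 2.24 and 2.44, a difference of 1.13 ± 0.59. The list's median was 0.06 on scan day 1 and 0.63 on scan day 2, and in conception cycles it was -0.34.

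Genes of the secretory endometrium showed no common direction. Of 33 measured, 20 were higher with a median of 0.30, and the list's array medians of the 2 days overlapped, from -0.26 to 0.35 at day 2 and from -0.11 to 0.33 at day 6. The median was 0.04 on scan day 1 and 0.07 on scan day 2. PAEP, which encodes glycodelin, the main secretory glycoprotein of the luteal endometrium, lay at -2.74, -1.52 and -0.19 at day 2 and at -1.92, -3.63, -3.33 and -1.87 on the day 6 arrays. The groups overlapped, with a difference of -1.20 ± 0.88, and by scan day it was -3.29 and 0.23. SPP1, the osteopontin gene, lay at -0.84, -3.38 and -1.80 and at -2.31, 0.70, 0.48 and -2.23. Its difference of 1.17 ± 1.42 was 2.40 on scan day 1 and -0.16 on scan day 2, so for both genes the sign differed between the scan days. With only 1 day 2 array on scan day 1, the scan day and that array cannot be told apart.

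GPX3, a secreted glutathione peroxidase, lay at -0.26, -1.88 and 0.69 and at 1.18, -0.20, 0.58 and 0.43, which overlap, and its difference was 0.98 ± 0.68. CXCL14, a chemokine of the luteal endometrium, differed by 0.31 ± 1.15, and HSD17B2, the enzyme that inactivates oestradiol under progesterone, by -0.70 ± 1.54. For the metallothionein genes MT1X and MT2A, whose close relatives one probe may not separate, the differences were 0.55 ± 0.68 and 0.38 ± 0.81. The 95% interval ran from -3.05 to 0.64 for PAEP and from -1.80 to 4.14 for SPP1, so these data leave wide room for a change in either direction.

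Genes of oestrogen action had a median of -0.25, with 10 of 17 lower. The groups were apart for PDZK1 alone (5.88% of the list, near the 4.98% of all features). IGF1, the growth factor through which oestrogen acts on the epithelium, lay at 3.93, 4.14 and 3.43 and at 4.22, 3.69, 3.53 and 1.48. The low value of day 6 replicate 4 made the difference of -0.60 ± 0.66, which was -0.02 without it. IGF2, a growth factor of fetal tissues and the endometrial stroma, lay at 1.29, 1.01 and 0.48 and at 2.05, 1.61, 2.31 and 1.72. The groups did not overlap, and the IGF2 difference was 1.00 ± 0.37. In conception cycles IGF2 was called higher at 1.74 ± 0.34 (limma adjusted p = 0.0205).

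SFRP4, a secreted Wnt inhibitor of the stroma, lay at 3.91, 4.31 and 3.87 and at 4.17, 3.39, 3.60 and 3.57, a difference of -0.35 ± 0.47. HOXA10, a homeobox gene of uterine identity, lay at 0.41, 0.39 and -0.56 and at 0.43, -0.38, -0.19 and -0.35, a difference of -0.20 ± 0.51. Both were well above background on all 7 arrays. PRL, the prolactin gene of decidual cells, was not well above background on any of the 7, and IGFBP1, another decidual gene, was so on 1 of 3 day 2 arrays and on 0 of 4 at day 6. ESR1, PGR and FKBP5 were not analysed here because no probe carries their name.

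Of 42 Wnt pathway genes 22 were higher, with a median of 0.07, but single members lay far from 0. Beside ROR1, WNT7A, the Wnt ligand of the luminal epithelium, lay at -0.69, -0.58 and -1.37 at day 2 and at -1.76, -2.42, -2.18 and -3.47 at day 6, without overlap and with a difference of -1.58 ± 0.64. DKK1, a secreted Wnt inhibitor of the luteal stroma, differed by -1.28 ± 1.01, with conception cycles at -2.65. WNT3 differed by 1.53 ± 0.56, with overlapping groups. Groups were apart for 7.14% of the list, near the 4.98% of all features, and no higher member was among them.

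Motile cilium genes had a median of -0.39 with 28 of 37 lower. CFAP100, a gene of cilia and flagella, lay at 0.17, 0.37 and 0.80 and at -0.27, -0.83, -0.86 and -2.41. These did not overlap, the difference was -1.54 ± 0.62, and in conception cycles CFAP100 was called lower at -3.34 ± 0.57 (limma adjusted p = 0.0161). FOXJ1, the master regulator of motile cilia, differed by 0.41 ± 0.49 in the opposite direction to the list's median, and by 1.74 ± 0.45 in conception cycles (limma adjusted p = 0.0619). Sterol and fatty acid synthesis genes had a median of -0.36 with 25 of 29 lower.

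**Figure D4:**
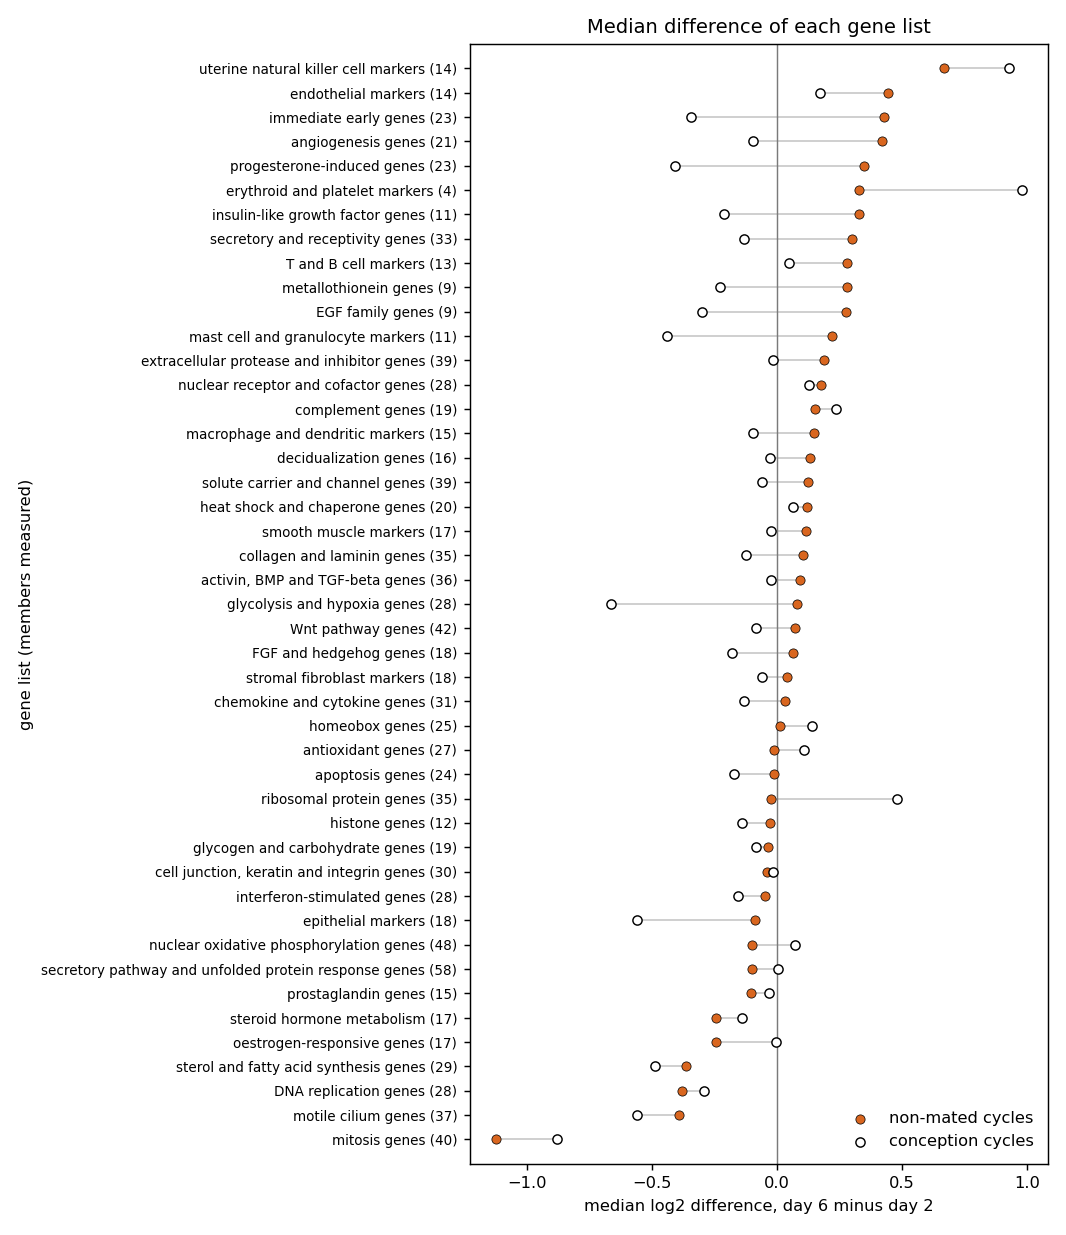
Median log2 difference, day 6 minus day 2, of the members of each of 45 gene lists in non-mated (orange) and conception cycles (open), with the number of members measured in brackets. Mitosis genes lie lowest in both, at -1.12 and -0.88, and the natural killer markers highest among non-mated medians at 0.67.

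None of the 45 lists had a called member in non-mated cycles. For steroid hormone metabolism the median difference was -0.24 with 7 of 17 higher. The median was 0.13 with 10 of 16 higher for decidualization genes and 0.33 with 9 of 11 higher for insulin-like growth factor genes. Chemokine and cytokine genes had a median of 0.03 with 16 of 31 higher, although they include IL6, LIF and TNFSF13B. Beside them CXCL13, the B cell chemokine gene, differed by 1.82 ± 0.89 and LTB, the lymphotoxin beta gene, by 2.12 ± 0.97. Stromal fibroblast markers had a median of 0.04, epithelial markers of -0.09, smooth muscle markers of 0.12 and ribosomal protein genes of -0.02. Nuclear genes of oxidative phosphorylation had a median of -0.10 with 38 of 48 lower, but 0.14 on scan day 1 and -0.19 on scan day 2.

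Values of the 193 features called in conception cycles were set beside their non-mated differences, which share no array with them but do share slides. Slide 1 held day 6 replicates 1 and 2 of conception and day 6 replicate 1 of non-mated cycles. Slide 4 held day 2 replicates 1 and 2 of conception and day 2 replicate 2 of non-mated cycles. The part of the slides in the values below was not tested. Of the 145 called higher, 138 were also higher in non-mated cycles, with a median of 0.54 against 1.82. Of the 48 called lower, 41 were lower, with a median of -0.37 against -1.58. Over all 12671 features tested, 6532 were higher and 6139 lower in non-mated cycles. The difference between the cycle types was called for 0 of the 193. The features were picked for their conception values, so these medians do not compare the cycle types. HRH1, a histamine receptor gene, was called lower in conception cycles (limma adjusted p = 0.0133), where it was well above background on 4 of 4 day 2 arrays and on 0 of 4 at day 6, and there it was at least 2.65-fold lower at day 6. In non-mated cycles it differed by -0.04 ± 0.48, with a 95% interval from -1.06 to 0.98. TMEM61 was called lower in conception cycles too, at -3.60 ± 0.50, a size that rests on dim signals since only 1 of 4 day 6 arrays there was well above background. In non-mated cycles it differed by -0.18 ± 0.54, with an interval from -1.31 to 0.95. For both genes the test of the difference between cycle types had a limma adjusted p of 0.899. In the model of all 24 arrays with array weights HRH1 was called for that difference (limma adjusted p = 0.0466).

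**Figure D5:**
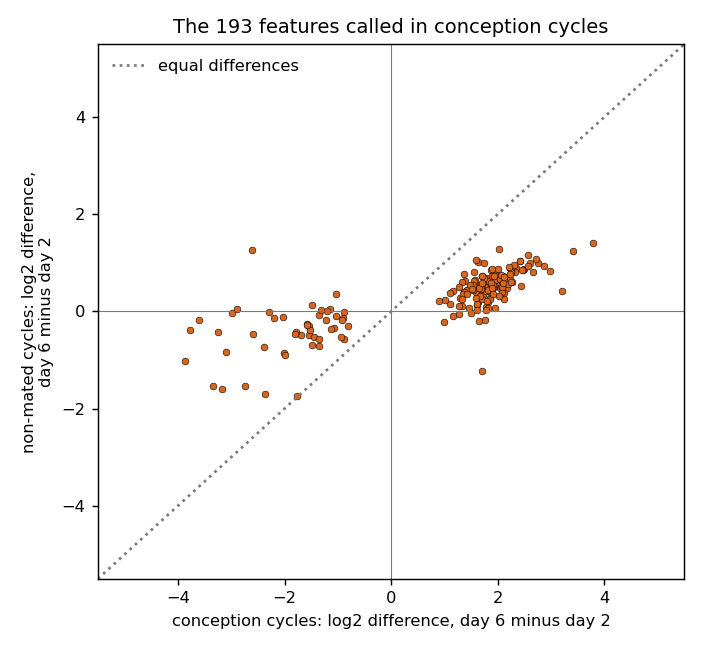
Log2 difference, day 6 minus day 2, of the 193 features called in conception cycles (horizontal axis) against the same features in non-mated cycles (vertical axis), with a dotted line of equal differences. Of the 145 features on the right 138 lie above 0, and of the 48 on the left 41 lie below 0.

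The 2 usable day 4 arrays are both of scan day 1, whereas 2 of the 3 day 2 arrays are of scan day 2, so day 4 values carry the scan day with them. Against day 2, 0 features were called at day 4, with 341 at an unadjusted p under 0.05, and 0 features were called between day 6 and day 4, with 216 at that threshold. DACT2 differed from day 2 by 1.38 at day 4 and by 1.37 at day 6, and F2 by 1.53 and 1.58. IL6 differed by -4.21 at day 4 and CD52 by -2.70. ROR1 differed by -0.48 at day 4. PDZK1 lay at -2.70 and -0.71 on the day 4 arrays, one within the day 6 range and one above every day 2 array, so their mean gives no timing. The day 4 arrays also lay far apart for the mitosis genes and ANXA4.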

How the data were processed

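The deposited scanner files give intensity per spot on a linear scale, background-corrected by Agilent Feature Extraction 9.5.3.1 per the file headers (10.7.3.1 per the submitters' processing notes), with probe positions on rheMac2. RNA was extracted with Trizol, per the labels' protocols. The authors also deposited a log2 value table, used as an alternative. Its column medians ran from -0.335 to -0.141 on the 7 arrays (up to 2.85 over all 24), its day 6 minus day 2 differences correlated with those of the scanner values at 0.981 with a slope of 0.911, and its centring is unknown.

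Spots of a probe were averaged without outlier spots. Levels are log2 processed signal minus the array's 75th percentile. Arrays with under 50% of probes well above background were left out. The filter asked for a signal well above background on 3 or more arrays of any group (on all, where fewer remained), and the brightest probe stood for a gene. Group means of 6 groups were fitted with limma 3.58.1 (R 4.3.3; lmFit, eBayes) on 21 arrays, two-sided, with Benjamini-Hochberg adjustment and a threshold of 0.05. The code was tested on simulated data. The number of arrays limits the precision. Of the probes, 8212 carried a symbol already, 3677 were named by gene ID and 216 by accession through the RefSeq gene table (names only), 214 and 127 through full names, 281 through descriptions, and 7490 had no symbol. The genes named are the 15 with the smallest p-values in each direction, since fewer than 5 passed, and 18 fixed genes. Others are members of the lists, named after their values were seen. The comparison, lists and rules were chosen with earlier results of these data known. Alternatives covered the arrays, background, scaling, filter, probes, value table, scan day, slide, replicate number and leaving out each array.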

Additional observations from a re-analysis of the deposited data

Results flagged for a closer look

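Of 52 groups of 4 arrays tested, 5 held an array whose gap to its nearest neighbour as a share of the group's range exceeded Dixon's 95% critical value, and chance alone gives about 1 in 20 groups. Only day 6 arrays of non-mated cycles were tested in this way, so all 5 are groups of those arrays. PRAME was at -8.29 on replicate 3, with the nearest array at -0.78. WAS was at -4.70 on replicate 1 (nearest -3.54), BST2 at 2.45 on replicate 2 (nearest 3.44) and FGR at -1.10 on replicate 4 (nearest -2.15). The uterine natural killer markers had a median of 1.92 on replicate 4 (nearest 0.59).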

How the results depend on the processing

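Limits: 3 against 4 arrays, with the spread pooled over 6 groups, give a typical 95% half-width of 0.83 log2 units. Dim probes follow the background method, and scan day moves with the arrays and with signal strength. The count of 0 called features held under all 13 alternatives that leave no single array out. The number of small p-values did not hold. With array weights on all 24 arrays, 1675 of 12096 features had an unadjusted p under 0.05, against 237 of 12671 in the main model. The smallest limma adjusted p was 0.0732 there, and the mitosis median was -1.57 with 40 of 40 genes lower. Leaving out 1 array gave 0 to 3 calls: 3 features without a symbol without day 2 replicate 2, and PRAME (1) without day 6 replicate 3, the array that lacked its signal. Conception calls fell to 2 with all 24 arrays, 0 with normexp and 86 without a filter, and were 385 with scan day as a covariate. The difference between cycle types gave 3 calls with array weights (HRH1 and 2 features without a symbol) and 0 to 2 when leaving out 1 array. Day 4 against day 2 gave 0 to 2, and day 6 against day 4 gave 0 to 1. The mitosis median was -0.38 with normexp. With all 24 arrays the sign turned for WAS (-0.095), FOXJ1 (-1.01), CXCL14 (-0.13) and SFRP4 (0.22), with normexp for NABP1 (0.16), without day 2 replicate 1 for CXCL14 (-0.24, with a range of -0.24 to 1.11) and without day 2 replicate 2 for MT2A (-0.072, with a range of -0.072 to 1.11 when leaving out 1 array); 810 of 817 values of named genes kept their sign. The cause was not tested.

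Deviations of same-numbered samples correlated at 0.26, -0.35 and -0.28 for numbers 1, 2 and 4, so the numbers were not taken to pair them. With the replicate block 0 features were called, 321 had an unadjusted p under 0.05, and the mitosis median was -0.70.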
